A study of Homo sapiens with 2 samples.

Results

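The EGF receptor family and its ligands were followed by RNA-seq in enzalutamide-resistant C4-2B ENZR cells and in enzalutamide-sensitive C4-2B Con cells. The group consists of 10 genes chosen by symbol: the receptors EGFR, ERBB2, ERBB3 and ERBB4, the ligands EGF, TGFA, AREG, EREG and HBEGF, and the receptor inhibitor ERRFI1. Each matched 1 row of the 25343 rows in the deposited table. C4-2B is an established human prostate cancer line that grows without testicular androgen and descends from LNCaP through C4-2. ENZR cells were cultured with 20 µM enzalutamide, an antiandrogen, and Con cells alongside them with the DMSO solvent. Both were grown in RPMI medium with 10% fetal bovine serum and antibiotics. The resistant line was sampled with the drug present, so resistance and exposure to enzalutamide cannot be told apart. Both titles end in shC, a tag the labels leave unexplained and that may stand for a control hairpin RNA in both lines.

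The 4 receptors are membrane tyrosine kinases that work as pairs. A ligand with an EGF-like domain binds the outer part, receptors pair, and their tails signal to the RAS-ERK and PI3K-AKT pathways. ERBB2 has no known soluble ligand of its own and acts as a partner, while ERBB3 has a weak kinase and recruits PI3K. All 5 ligands bind EGFR, HBEGF and EREG also bind ERBB4, and all are made as membrane proteins that proteases release. In prostate epithelium, EGFR signalling is a growth input that runs beside the androgen pathway, and ERBB2 with ERBB3 is known to support the growth of prostate cancer cells.

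Each group is 1 library, with 23479051 reads in genes for ENZR and 21024484 for Con. One read was worth 0.0404 CPM in ENZR and 0.0490 CPM in Con. CPM stands here for reads per 1000000 as scaled by the authors with TMM, a method that aligns libraries on most of their genes. No value has a replicate, so no test between the lines was possible, and each ratio carries an exact 95% counting interval (Clopper-Pearson) that covers counting error only. All 10 luminal prostate markers were detected in both libraries, with FOXA1 at 428 CPM in ENZR and 444 CPM in Con. KLK3 stood at 3.72 CPM in ENZR and 1428 CPM in Con. The 10 markers summed to 2949 CPM in ENZR and 4499.8 CPM in Con, and most of this difference was KLK3. By log2 ratio, 3 of the 10 were higher in ENZR and 7 lower. The higher ones included FOLH1, 1.40-fold higher (1.37 to 1.43), and KRT8, 1.27-fold higher (1.23 to 1.31). The basal markers KRT5 and TP63 had 0 reads in both, and the 4 basal markers summed to 0.121 CPM in ENZR and 0.392 CPM in Con. The leukocyte marker CD3E and the endothelial marker CDH5 also had 0 reads in both. The 3 leukocyte markers summed to 10.1 CPM in ENZR and 16.0 CPM in Con, most of it CD68, and the 3 endothelial markers to 4.57 CPM in ENZR and 10.5 CPM in Con. Most of the endothelial sum was VWF, with 72 reads in ENZR and 182 reads in Con, 3.06-fold lower (2.32 to 4.08). PECAM1 had 41 reads in ENZR and 32 reads in Con. The fibroblast and smooth muscle markers summed to 49.8 CPM in ENZR and 22.9 CPM in Con. Most of this was COL1A1, a collagen chain, at 44.4 CPM in ENZR and 18.1 CPM in Con, 2.45-fold higher (2.18 to 2.76). LUM, another matrix gene, had 32 reads in ENZR and 0 reads in Con, and COL1A2 had 0 reads in both. The part of other cell types in the results was not tested.

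The 3 ligands EGF, TGFA and HBEGF carried the largest differences of the group, and their promoters are printed to show the DNA before their transcription starts. The sequences are RefSeq's on GRCh38.p14, the 250 bases before the start, read 5′ to 3′ on the gene's strand. Capitals mark the GC box GGGCGG, a binding motif of SP1-type factors, and the AP-1 motif TGANTCA, each searched on both strands.
HBEGF, chr5:140346604-140346853, minus strand: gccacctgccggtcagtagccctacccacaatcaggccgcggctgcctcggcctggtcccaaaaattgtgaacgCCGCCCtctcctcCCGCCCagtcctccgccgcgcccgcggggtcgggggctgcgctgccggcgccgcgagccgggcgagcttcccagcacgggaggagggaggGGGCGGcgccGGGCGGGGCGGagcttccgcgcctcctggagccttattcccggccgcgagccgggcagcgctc
TGFA, chr2:70553827-70554076, minus strand: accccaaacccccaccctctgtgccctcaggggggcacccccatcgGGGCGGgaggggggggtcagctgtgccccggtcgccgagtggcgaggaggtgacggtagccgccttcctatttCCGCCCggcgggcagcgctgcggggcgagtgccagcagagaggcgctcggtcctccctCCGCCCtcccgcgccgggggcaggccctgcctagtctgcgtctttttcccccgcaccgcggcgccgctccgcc
EGF, chr4:109912633-109912882, plus strand: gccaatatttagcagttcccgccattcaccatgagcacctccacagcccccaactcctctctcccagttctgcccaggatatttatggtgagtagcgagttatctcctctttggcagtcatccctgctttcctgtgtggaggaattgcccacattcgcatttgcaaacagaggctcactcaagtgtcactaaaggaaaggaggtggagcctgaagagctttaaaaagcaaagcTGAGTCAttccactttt
The HBEGF promoter held 5 GC boxes, of which a pair overlapped, and the TGFA promoter held 3. The EGF promoter held 0 GC boxes and 1 AP-1 motif, 17 to 11 bases before the start. At least 1 GC box was found in 42.6% of all 35116 promoters and at least 1 AP-1 motif in 6.57%. These shares give no comparison for counts of 5 or 3. HBEGF and TGFA had 33 and 27 CpG dinucleotides and a GC content of 76.4% and 75.6%, while EGF had 3 CpG and a GC content of 48.8%, against medians of 11 CpG and 58.0% over all promoters. The TATA box TATAAA was in none of the 3 and in 10.7% of all. Other members did not keep this split. EGFR, lower in ENZR, had 2 GC boxes, 25 CpG and a GC content of 73.6%. ERBB2, higher in ENZR, had 0 GC boxes, 1 AP-1 motif and a GC content of 65.6%. ERRFI1, slightly lower, had 1 GC box and a GC content of 75.2%, and ERBB3 had no entry. These matches describe the letters only.

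Among the receptors, EGFR and ERBB3 were lower in ENZR and ERBB2 was higher. EGFR, the receptor of EGF and TGFA, stood at 52.5 CPM (1298 reads) in ENZR and 115 CPM (2353 reads) in Con. It was thus 2.20-fold lower in ENZR, with a counting interval of 2.05 to 2.35. ERBB3, the partner that recruits PI3K, stood at 148 CPM (3650 reads) in ENZR and 287 CPM (5859 reads) in Con, 1.94-fold lower (1.87 to 2.03). ERBB2, the partner without a ligand, stood at 240.0 CPM (5936 reads) in ENZR and 173 CPM (3541 reads) in Con, 1.38-fold higher (1.33 to 1.44). The counting intervals of these 3 ratios all excluded 1. Among the 13803 genes that averaged at least 1 CPM over both libraries, the interval lay wholly above 1 for 34.6% and wholly below 1 for 36.6%, so at this depth an interval that excludes 1 was common. ERBB4, like ERBB3 a receptor of neuregulins, had 1 read in ENZR and 0 reads in Con. Both values are at or under 3 reads, the limit that a count of 0 allows (0.121 CPM in ENZR and 0.147 CPM in Con), so no ratio is given. In RNA from whole cultures, fewer cells with a transcript and less of it per cell cannot be told apart. EGFR-AS1, a gene on the opposite strand of EGFR named after its values were seen, had 1 read in ENZR and 10 reads in Con. The use of strand in counting is not given in the sources used here, so reads of EGFR and EGFR-AS1 may mix, but the antisense reads were few beside those of EGFR.

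**Figure D1:**
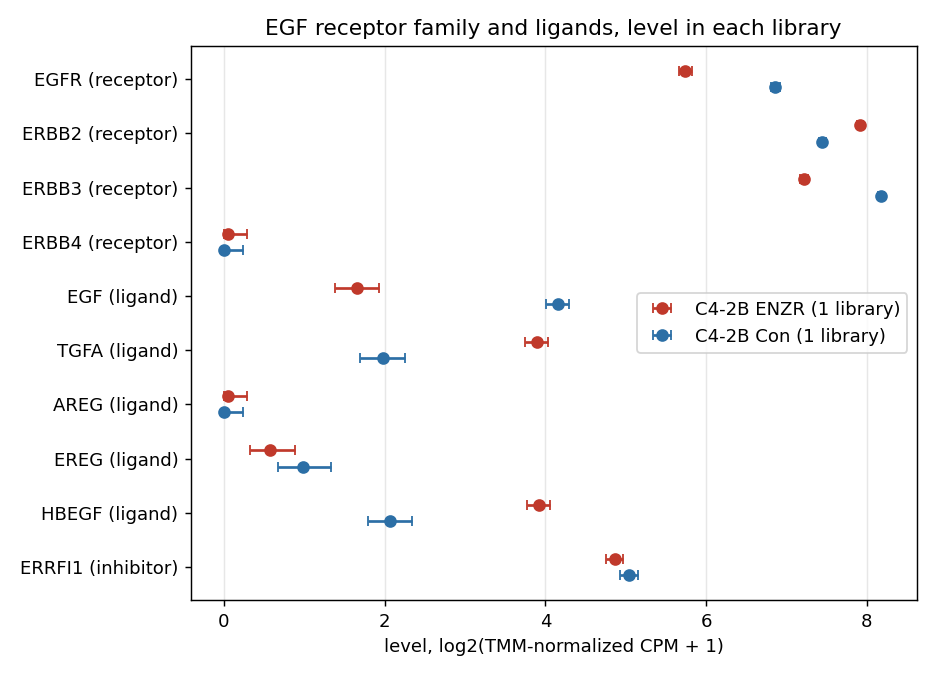
Level of each of the 10 genes on a log2(CPM + 1) axis, in ENZR (red) and Con (blue), 1 library each. Bars are exact Poisson 95% intervals of the read count and cover counting error only. EGFR, ERBB3 and EGF lie lower in ENZR, and ERBB2, TGFA and HBEGF lie higher. ERBB4 and AREG lie at or next to 0 in both.

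The ligands differed more than the receptors, and in both directions. EGF, the founding ligand of the family, stood at 2.14 CPM (53 reads) in ENZR and 16.8 CPM (343 reads) in Con, 7.84-fold lower in ENZR (5.86 to 10.7). TGFA, transforming growth factor alpha, stood at 13.8 CPM (342 reads) in ENZR and 2.94 CPM (60 reads) in Con, 4.70-fold higher (3.57 to 6.30). HBEGF, the heparin-binding ligand, stood at 14.2 CPM (350 reads) in ENZR and 3.18 CPM (65 reads) in Con, 4.44-fold higher (3.40 to 5.88). The TGFA and HBEGF ratios lay within each other's counting intervals. EREG, epiregulin, was scarce, with 12 reads (0.485 CPM) in ENZR and 20 reads (0.980 CPM) in Con. Its ratio of ENZR over Con was 0.495 with an interval of 0.221 to 1.06, so a difference was not detectable at this depth. AREG, amphiregulin, had 1 read in ENZR and 0 reads in Con, at or under the same limit of 3 reads. The sum over the 5 ligands was 30.7 CPM in ENZR and 23.9 CPM in Con.

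ERRFI1, also called MIG6, binds the kinase of EGFR and its relatives and blocks it. It stood at 28.1 CPM (694 reads) in ENZR and 31.9 CPM (651 reads) in Con, a ratio of 0.880 (0.790 to 0.981). This is the smallest difference among the 7 members with a mean of 1 CPM or more. Its log2 ratio of -0.18 came to -0.06 when the authors' scaling was undone, which moved the median of all genes from -0.01 to 0.10.

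Shares of reads within a library do not depend on the scaling between libraries, and they showed the same shifts. Of the 10885 receptor reads in ENZR, 54.5% came from ERBB2, 33.5% from ERBB3 and 11.9% from EGFR. Of the 11753 receptor reads in Con, 30.1% came from ERBB2, 49.9% from ERBB3 and 20.0% from EGFR. ERBB2 had 1.63 reads per ERBB3 read in ENZR (1.56 to 1.70) and 0.604 in Con (0.580 to 0.630). EGFR had 0.356 reads per ERBB3 read in ENZR (0.334 to 0.379) and 0.402 in Con (0.383 to 0.421), a smaller difference than that of ERBB2 to either of them. Of the 758 ligand reads in ENZR, HBEGF gave 46.2% (exact interval 42.6% to 49.8%), TGFA 45.1% (41.5% to 48.7%) and EGF 6.99% (5.28% to 9.05%). Of the 488 ligand reads in Con, HBEGF gave 13.3% (10.4% to 16.7%), TGFA 12.3% (9.52% to 15.5%) and EGF 70.3% (66.0% to 74.3%). HBEGF had 1.02 reads per TGFA read in ENZR (0.879 to 1.19) and 1.08 in Con (0.751 to 1.57).

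**Figure D2:**
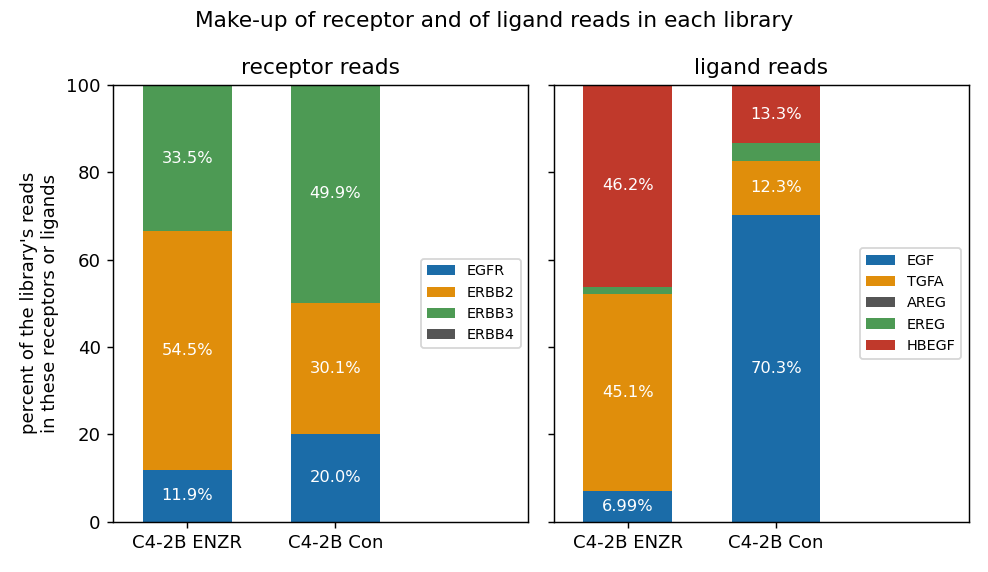
Percent of the reads of the 4 receptors (left panel) and of the 5 ligands (right panel) that each gene gave, in ENZR and Con, 1 library each. ERBB2 gave 54.5% of receptor reads in ENZR and 30.1% in Con. HBEGF and TGFA gave 46.2% and 45.1% of ligand reads in ENZR, where EGF gave 6.99%, against 70.3% for EGF in Con.

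Levels of different genes can be set side by side only per length, here CPM per kilobase of the principal transcript in GENCODE release 29. In ENZR the order of the receptors was ERBB2 at 52.8, ERBB3 at 24.9 and EGFR at 5.34 CPM per kilobase. In Con it was ERBB3 at 48.5, ERBB2 at 38.2 and EGFR at 11.7 CPM per kilobase. The principal EGFR transcript is 9821 bases long, with much of it outside the coding part, but the receptors kept this order in both libraries when coding length was used instead. The ligand levels per kilobase of transcript were 5.93 for HBEGF, 3.21 for TGFA and 0.439 for EGF in ENZR. In Con they were 1.33 for HBEGF, 0.682 for TGFA and 3.44 for EGF. The order of the ligands depended on the length used. Per kilobase of coding sequence, TGFA stood at 28.8, HBEGF at 22.7 and EGF at 0.592 CPM in ENZR, and TGFA at 6.12, HBEGF at 5.10 and EGF at 4.64 CPM in Con. EGF was thus the lowest of the 3 in ENZR by both lengths, and either the highest or the lowest in Con. By transcript length, every receptor but ERBB4 stood above the 5 ligands in Con. In ENZR this held for ERBB2 and ERBB3, while EGFR at 5.34 lay just under HBEGF at 5.93 CPM per kilobase. By coding length, EGFR at 14.5 CPM per kilobase in ENZR lay under both TGFA at 28.8 and HBEGF at 22.7.

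The place of the group among all genes was read from log2 ratios, ENZR over Con, with 1 CPM added to each value, which understates the change of low genes. Of the 10 members, 7 reached a mean of 1 CPM, and ERBB4, AREG and EREG did not. Among the 7, TGFA (1.91) and HBEGF (1.86) were past 2-fold upward, as were 6.69% of all genes, and EGF (-2.50) and EGFR (-1.12) past 2-fold downward, as were 4.64% of all genes. ERBB3 at -0.95 lay just short of 2-fold, and ERBB2 (0.47) and ERRFI1 (-0.18) lay in between. The members' median was -0.18, against -0.01 over all genes. A higher log2 ratio than that of TGFA was found for 2.08% of all genes, and than that of HBEGF for 2.26%. A lower one than that of EGF was found for 0.696%, than that of EGFR for 3.72% and than that of ERBB3 for 5.22%. ERBB2 was exceeded by 17.8% of genes.

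**Figure D3:**
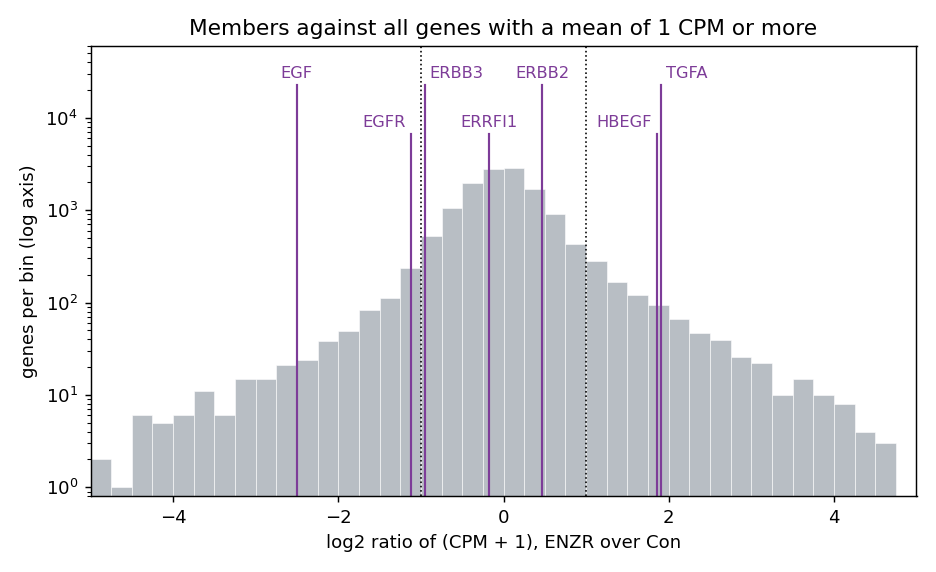
Number of genes (log axis) by log2 ratio of (CPM + 1), ENZR over Con, for the 13803 genes that averaged at least 1 CPM, with lines at the 7 members that reached it. Dotted lines mark 2-fold. EGF lies in the lower tail, TGFA and HBEGF lie together in the upper tail, and 22 genes beyond 5 on either side are not drawn.

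The rest of the ErbB network was read from 89 genes in 8 role lists, of which 77 reached a mean of 1 CPM. Of these, 8 were past 2-fold upward, 5 were past it downward and 64 lay between, and their median log2 ratio was 0.07. The shares past 2-fold were thus 10.4% upward and 6.49% downward, beside 6.69% and 4.64% of all genes. Of the upward genes, ADAM12, TIMP3 and ETV4 reached a mean of 1 CPM only through their ENZR values. Of the downward genes, SPRY2 reached it only through Con. The shares rest in part on these genes, so no excess over all genes is read from them. The other ErbB ligands were scarce, and none of the 6 reached a mean of 1 CPM. NRG2, a neuregulin for ERBB3 and ERBB4, had 43 reads (1.74 CPM) in ENZR and 0 reads in Con, at least 11.8-fold higher with a floor of 3 reads in Con and the ENZR reads taken as counted, and 9.21-fold higher at the lower end of the exact counting interval. NRG4, a neuregulin for ERBB4, had 30 reads in ENZR and 10 reads in Con, a ratio of 2.48 (1.18 to 5.68). EPGN, epigen, had 6 reads in ENZR and 8 reads in Con, with an interval of the ratio from 0.177 to 2.03. NRG3 had 4 reads in ENZR and 1 read in Con (ratio 3.30, 0.327 to 163), BTC, betacellulin, had 2 reads in ENZR and 0 reads in Con, and NRG1 had 0 reads in both.

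Among 8 genes of ligand shedding, 3 were at least 2-fold higher (37.5%, beside 6.69% of all genes) and 1 lower (12.5%, beside 4.64%). The 3 higher genes had means of 1.81 (ADAM12), 4.19 (RHBDL2) and 1.56 CPM (TIMP3), all under 5 CPM. ADAM12 and TIMP3 reached a mean of 1 CPM only through their ENZR values, so the upward share rests on genes with few reads. ADAM17, the main protease that releases TGFA and HBEGF, stood at 23.0 CPM in ENZR and 20.5 CPM in Con. ADAM10, which releases EGF, stood at 186 CPM in ENZR and 179 CPM in Con. Neither came near 2-fold. ADAM9, a related protease, stood at 102 CPM in ENZR and 291 CPM in Con, 2.87-fold lower (2.74 to 3.004). ADAM12, another related protease and far scarcer than ADAM9, had 81 reads (3.28 CPM) in ENZR and 7 reads (0.343 CPM) in Con, a ratio of 9.55 (4.43 to 24.5). RHBDL2, a rhomboid protease, stood at 5.98 CPM in ENZR and 2.40 CPM in Con, 2.49-fold higher (1.79 to 3.52). TIMP3, an inhibitor of ADAM17, had 77 reads (3.11 CPM) in ENZR and 0 reads in Con, at least 21.2-fold higher with the same floor and the ENZR reads taken as counted, and 16.8-fold higher at the lower end of the exact counting interval. The median of the list, 0.38, was the same with TIMP3 set to the bound from the floor. The genes past 2-fold here thus held 2 proteases and an inhibitor that were higher and a protease that was lower.

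Among the inner signalling genes, the RAS-ERK cascade had 0 of 10 genes past 2-fold, from MAP2K2 at -0.78 to MAPK3 at 0.36 in log2 ratio, and the PI3K-AKT arm had 0 of 9 measured genes past it. With 6.69% of all genes past 2-fold upward and 4.64% downward, a count of 0 in lists this short is near the share over all genes. The PI3K-AKT genes ranged from AKT2, a kinase of the arm, at -0.66 to PIK3R1, a regulatory subunit of PI3K, at 0.91. PIK3R1 stood at 84.9 CPM in ENZR and 44.6 CPM in Con, 1.90-fold higher (1.76 to 2.06). Of the 16 adaptors and effectors, 1 was past 2-fold. This was GAB2, a docking protein that carries PI3K, at 8.57 CPM in ENZR and 3.14 CPM in Con, 2.73-fold higher (2.06 to 3.68). Among 13 genes of receptor ubiquitination and sorting, NEDD4, a ubiquitin ligase, was past it at 22.3 CPM in ENZR and 10.6 CPM in Con, 2.10-fold higher (1.79 to 2.47). Among 9 other attenuators, PTPRK, a receptor phosphatase known to act on EGFR, was past it at 31.3 CPM in ENZR and 11.6 CPM in Con, 2.70-fold higher (2.33 to 3.14). The attenuator LRIG1, which promotes loss of ErbB receptors, stayed under 2-fold with a log2 ratio of -0.72.

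Genes that ERK signalling induces went both ways. Of 17 listed, 12 reached a mean of 1 CPM, with 2 past 2-fold upward (16.7%, beside 6.69% of all genes), 4 past it downward (33.3%, beside 4.64%) and a median of 0.03. The 4 lower ones were PHLDA1, DUSP4, SPRY1 and SPRY2. SPRY1, a Sprouty inhibitor of receptor signalling, stood at 1.90 CPM in ENZR and 9.41 CPM in Con, 4.95-fold lower (3.58 to 6.96). Its relative SPRY2 had 21 reads in ENZR and 60 reads in Con, 3.46-fold lower (2.08 to 5.99). PHLDA1 (log2 ratio -2.86) and the ERK phosphatase DUSP4 (-2.71) lay lowest. The 2 higher ones were the ETS factor ETV4, with 162 reads in ENZR and 12 reads in Con, and the ERK phosphatase DUSP5, with 152 reads in ENZR and 48 reads in Con. Their means of 3.57 and 4.25 CPM were under 5 CPM. ETV4, at 0.588 CPM in Con, reached a mean of 1 CPM only through ENZR. SPRY2, at 0.849 CPM in ENZR, reached it only through Con. EGR1 and FOS, immediate early genes of the pathway, were scarce, with 28 and 11 reads in ENZR against 18 and 4 reads in Con. CCND1, cyclin D1, was abundant at 385 CPM in ENZR and 372 CPM in Con.

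**Figure D4:**
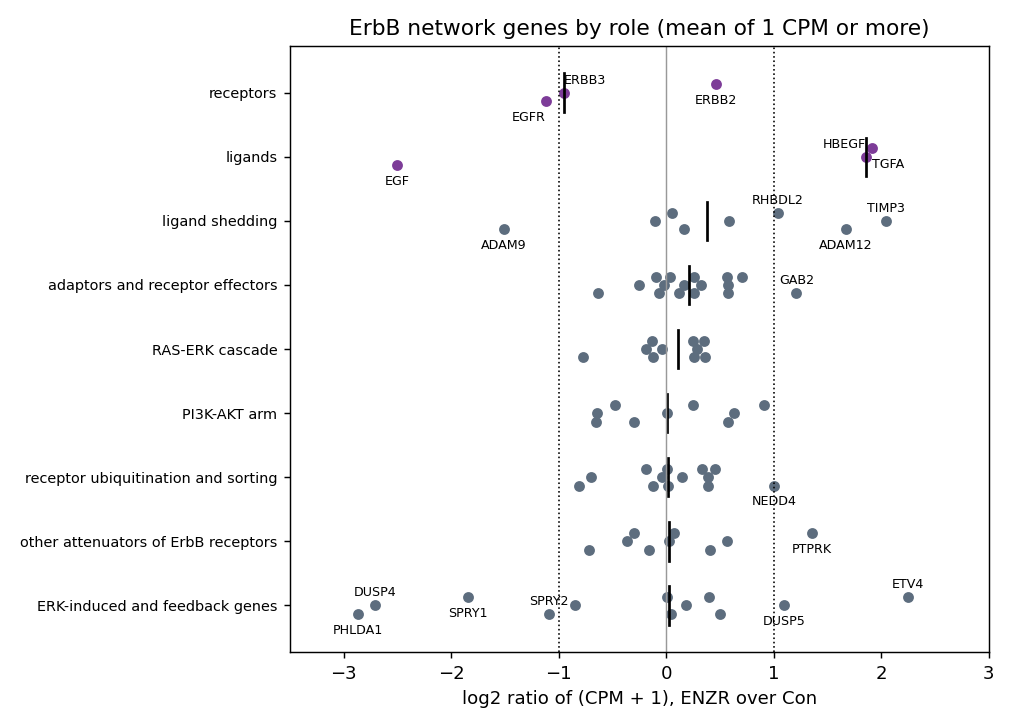
Log2 ratio of (CPM + 1), ENZR over Con, for receptors and ligands (purple) and for ErbB network genes by role (grey), each with a mean of 1 CPM or more. Black bars are list medians and dotted lines mark 2-fold. All genes of the RAS-ERK cascade and the PI3K-AKT arm lie between the dotted lines, while ligands, shedding genes and ERK-induced genes spread beyond them on both sides.

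The genes beside each member on its chromosome were compared with it, using the 20 nearest measured genes in RefSeq's gene order. EGFR on chromosome 7 had a log2 ratio of -1.12, while its neighbours had a median of 0.02, with 2 of 20 past 2-fold upward and 1 past it downward. That gene, DDC, was lower than EGFR at -1.72, and the highest was UPP1 at 1.72. ERBB3 on chromosome 12 stood at -0.95, and its neighbours at a median of 0.19 and a lowest value of -0.62, so it lay below all 20 of them. EGF on chromosome 4 stood at -2.50, below all 20 neighbours, whose median was -0.23 and whose lowest value was -1.27. Of these neighbours, 3 were past 2-fold upward and 2 past it downward. TGFA on chromosome 2 stood at 1.91 beside a median of 0.01, with 1 of 20 neighbours at least 2-fold higher. That gene, CYP26B1, was higher than TGFA at 2.64. HBEGF on chromosome 5 stood at 1.86 beside a median of -0.17, with 3 of 20 past 2-fold upward and 2 past it downward. ERBB2 on chromosome 17 stood at 0.47, within the range of its neighbours (-0.82 to 0.95, median 0.00). With the neighbours' median subtracted, ERBB3 came to -1.15 and passed 2-fold.

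**Figure D5:**
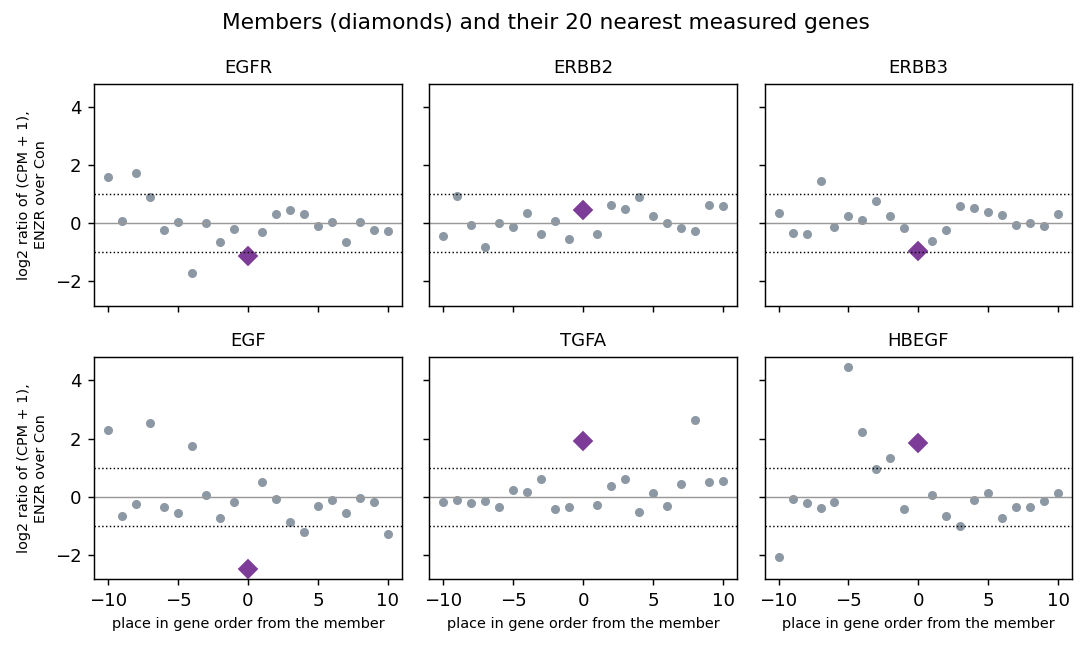
Log2 ratio of (CPM + 1), ENZR over Con, of 6 members (diamonds) and of the 10 nearest measured genes on each side (circles), by place in gene order. Dotted lines mark 2-fold. EGF and ERBB3 lie below all of their 20 neighbours, while ERBB2 lies within their range.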

How the data were processed

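RNA-seq libraries of C4-2B ENZR and C4-2B Con cells (n = 1 each) were read from 1 table of 25343 genes. Total RNA was purified on columns and sequenced as single reads on an Illumina HiSeq, per the labels' protocols. The deposited values are a normalized signal per gene, reads per 1000000 after the authors' TMM scaling, and the columns sum to 949450 and 1030021 for ENZR and Con. Tools listed in the submitters' processing notes are Bowtie2 (version 2.1.0), RSEM (1.2.15) and edgeR, with hg19 as the build. Their roles, the annotation and the strand setting are not given in the sources used. Every value (100% in each library) was within 0.01 reads of a whole multiple of the value of 1 read, and reads were recovered from it, and 0 other value columns were present. RSEM shares out reads that fit several genes, so these reads may be rounded estimates.

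With 1 library per group a count test has no residual spread, so no p-value was computed. Ratios carry exact 95% Clopper-Pearson intervals from the recovered reads. The log2 ratio used a pseudocount of 1 CPM and the 13803 genes that averaged at least 1 CPM. Intervals and the floor of 3 reads cover counting error only, and reads without molecular identifiers are not independent molecules. The members and lists were chosen with earlier results of these data known. Named genes are all members, all other ErbB ligands, up to 4 genes past 2-fold in each direction per role list, and luminal markers, of which some items are not reported here. Others named (ADAM10, ADAM17, LRIG1, MAP2K2, MAPK3, AKT2, PIK3R1, COL1A1, LUM, VWF, PECAM1, DDC, UPP1, CYP26B1, EGR1, FOS, CCND1 and genes of the closing observations) were chosen after their values were seen. Promoters came from RefSeq (GRCh38.p14), where 9 of the 10 members had an entry, taking the first entry listed for EGFR and TGFA, and transcript lengths from GENCODE 29. Gene order came from the same RefSeq assembly and was used for neighbours only. Calculations used Python 3.11.15, numpy 2.4.6, pandas 2.3.3 and scipy 1.17.1 and were tested on simulated reads.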

Additional observations from a re-analysis of the deposited data

How the results depend on the processing

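No paired analysis was possible because each group is 1 library. Under 9 alternatives (pseudocounts of 0.25 and 5 CPM, no filter or a mean of 5 CPM, TMM scaling undone, upper quartile and median of ratios scaling, the 10 most abundant genes left out, neighbours' median subtracted), all 7 members with a mean of 1 CPM or more kept their direction. EGF, EGFR, TGFA and HBEGF stayed past 2-fold in each. A change of pseudocount or filter cannot reverse a direction, and a filter leaves each member's ratio as it was. Only the changes of scaling, the removal of abundant genes and the neighbours' median could therefore reverse one. Scaling and the removal moved the median log2 ratio of all genes from -0.01 to at most 0.10. The neighbours' medians of the 7 members ran from -0.23 (EGF) to 0.19 (ERBB3). Only ERRFI1, at -0.18, lay close enough to 0 for such shifts to reverse it, so the kept direction says little for the other members. EGFR ranged from -1.14 to -1.004 in log2 ratio, EGF from -2.83 to -1.61, TGFA from 1.25 to 2.14 and HBEGF from 1.23 to 2.07, the smallest of the ligands' differences coming with the pseudocount of 5 CPM. ERBB3 ranged from -1.15 to -0.84 and ERBB2 from 0.46 to 0.58. Of the 77 network genes, 8 were at least 2-fold higher and 5 lower. With a pseudocount of 5 CPM these came to 2 and 4 of 77, and with a mean of 5 CPM to 3 and 4 of 68. These settings shrink or drop genes with few reads. Over all genes, 923 at least 2-fold higher (6.69%) and 641 lower (4.64%) came to 447 (3.24%) and 371 (2.69%) with a pseudocount of 5 CPM. With a mean of 5 CPM they came to 577 (5.13%) and 456 (4.06%). In both settings the network's share was under that of all genes upward and above it downward. Use of the coding length, chosen after seeing the data, moved the EGF share of ligand levels per length in Con from 60.7% to 26.1%. Depth limits AREG, ERBB4 and EREG, and the absence of replicates limits every value.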

Other observations

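GRB7, ERBB2IP and PA2G4, which encode proteins that bind ErbB receptors inside the cell, were chosen after their values were seen and do not stand for such proteins in general. GRB7, an adaptor of ERBB2 whose gene lies near it on chromosome 17, stood at 17.1 CPM in ENZR and 10.6 CPM in Con, 1.61-fold higher (counting interval 1.37 to 1.91). Other genes of that stretch were mixed, with IKZF3 1.42-fold higher (1.30 to 1.55), STARD3 at a ratio of 1.06 (0.967 to 1.16), and MIEN1 and PGAP3, which overlap ERBB2 in GENCODE on the opposite strand, at ratios of 0.773 and 0.670. ERBB2IP, the ERBB2-binding scaffold erbin, stood at 99.6 CPM in ENZR and 141 CPM in Con, 1.42-fold lower (the interval of the ratio of ENZR over Con was 0.669 to 0.746). PA2G4, which encodes an ERBB3-binding protein and is the next measured gene after ERBB3, stood at 314 CPM in ENZR and 485 CPM in Con, 1.54-fold lower.

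The HBEGF stretch of chromosome 5 held other genes that were higher in ENZR. Within 5 places before HBEGF in gene order, LINC01024 had a log2 ratio of 4.46, PURA, a nucleic acid binding protein, of 2.21, CYSTM1 of 1.33 and IGIP of 0.95, while PFDN1, next to HBEGF, stood at -0.41. On the other side of HBEGF, 0 of 10 genes were at least 2-fold higher, and EIF4EBP3 was past 2-fold downward at -1.02. PROB1, 10 places before HBEGF, stood at -2.09. The median of the 20 neighbours was -0.17, so the stretch as a whole was not higher. With the median of its 20 neighbours subtracted, HBEGF had a log2 ratio of 2.02.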
